A study of Drosophila melanogaster with 36 samples.

Results

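Many widely used fly genes have a second copy whose use is largely restricted to the germline. Followed here in larval brains were 8 genes listed as such copies: RpL22-like, RpL37-2, gNacalpha, eIF4E3, HP6, Rcd-1r, ATPsynepsilonL and ATPsynGL. They were chosen by their read counts in the H3.3WTH3.2K36R minus H3.3WTH3.2HWT contrast, a histone mutant in which their RNA was higher than in its control. Their values in that contrast therefore describe the choice and are given without a test. All 8 were found among the 17606 genes of the count table by symbol and FlyBase identifier, and each was set beside the ubiquitous gene it resembles, called its partner: RpL22, RpL37-1, Nacalpha, eIF4E1, HP1b, Rcd-1, sun and ATPsynG. All 8 passed the filter on low counts over the 36 libraries, 7 (not ATPsynGL) passed it with the H3.3WTH3.2K36R libraries left out, and 5 (not RpL37-2, HP6 or ATPsynGL) passed it over the control libraries alone. Germline use of these genes is background knowledge and was not checked for each of them, since all libraries were made from brains.

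The series, whose title names Set2, the histone residue it methylates and the male X chromosome, measured polyA RNA in brains of wandering L3 larvae of Drosophila melanogaster raised at 25 °C. The 12 groups were 6 genotypes in each sex with 3 libraries per group. Set2 is the enzyme that trimethylates a lysine of histone H3 in the bodies of transcribed genes, and H3.2K36R and H3.3K36R denote that lysine changed to arginine in the replication-dependent H3.2 or in the replacement variant H3.3. The mutant genotypes were H3.3WTH3.2K36R (wild-type H3.3, mutant H3.2), H3.3K36RH3.2HWT (mutant H3.3) and Set21 (a Set2 allele), and their controls were H3.3WTH3.2HWT, H3.3CtrlH3.2HWT and yw, in that order. The labels name no transgene, promoter, driver or number of larvae per library, and do not spell out HWT or Ctrl. Nothing in the labels says that replicates came from separate crosses or dissections, so p-values measure the spread between these libraries.

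RpL22-like and RpL37-2 encode proteins of the large ribosomal subunit. gNacalpha is a germline form of the alpha subunit of the nascent polypeptide-associated complex, which binds new protein chains at the ribosome exit, and eIF4E3 is a relative of the cap-binding factor eIF4E1 that is needed in the male germline. HP6, also called Umbrea, arose from the heterochromatin protein gene HP1b and is found at centromeres, while Rcd-1r resembles Rcd-1, a subunit of the CCR4-NOT deadenylase. ATPsynepsilonL and ATPsynGL resemble the epsilon and g subunits of the mitochondrial ATP synthase, encoded by sun and ATPsynG. In flies, germline genes of this kind are kept at low RNA levels in somatic tissue.

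Libraries held 82.5 M to 143.8 M counted reads (M, 1000000), with a median of 103 M. Levels are counts per 1000000 reads (CPM), and 3 reads, taken as the smallest countable level, were worth 0.0210 to 0.0366 CPM. The targeted gene Set2 averaged 28.9 CPM in Set21 males and 32.1 CPM in Set21 females, against 198 CPM in yw males and 185 CPM in yw females. His3.3A averaged 67.6 CPM in H3.3K36RH3.2HWT males and 67.6 CPM in H3.3CtrlH3.2HWT males, against 249 to 353 CPM in the 8 groups of the other genotypes, so lowered His3.3A RNA was shared by mutant and control of the H3.3 pair. All 7 brain markers (elav, nSyb, brp, repo, dpn, ase, mira) were detected in every group, with sums of 2532 to 3210 CPM. Summed roX1 and roX2, transcripts of the male X, were 1925 to 3193 CPM in libraries labelled male and 184 to 955 CPM in libraries labelled female.

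All 8 genes lie on autosomes, whereas 5 of the 8 partners (RpL22, RpL37-1, HP1b, Rcd-1 and sun) lie on the X, which holds 16.6% of the tested genes, per the Ensembl annotation. RpL22-like and RpL37-2 lie on arm 2R, gNacalpha, HP6, Rcd-1r and ATPsynGL on 2L, eIF4E3 on 3L and ATPsynepsilonL on 3R. Their coding regions have no intron in 6 cases, the exceptions being eIF4E3 with 5 and ATPsynGL with 1. Among partners 2 (Nacalpha and HP1b) have none, and 20.7% of protein-coding genes have none. Coding lengths of a pair were close in most cases, with 936 bases in RpL22-like and 897 in RpL22, but HP6 has 318 bases against 720 in HP1b and gNacalpha has 1041 against 651 in Nacalpha. HP6 lies within dpy on the same strand without sharing an exon, gNacalpha lies within IA-2 on the opposite strand, and an exon of Rcd-1r overlaps CG13102 on the opposite strand.

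In H3.3WTH3.2K36R brains each of the 8 genes was higher than in H3.3WTH3.2HWT brains, where group means were 0 to 0.519 CPM. ATPsynGL stayed low, and its 0.233 CPM in mutant males was below the control means of Rcd-1r and ATPsynepsilonL. Every mutant library stood above every control library for 8 of 8 genes in males and in females; across all tested genes 19.4% in males and 17.9% in females showed the same separation upwards, and nothing is read from the comparison because it chose the genes. Over the 8 genes the median log2 difference was 6.21 in males, beside 0.00 over all genes, and 6.87 in females, or 5.95 with genes silent in the control placed at their lower bound.

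RpL22-like had 29.9, 26.1 and 29.1 CPM in H3.3WTH3.2K36R males, against 0.310, 0.0842 and 0.129 CPM in H3.3WTH3.2HWT males. It had 20.9, 14.6 and 16.02 CPM in H3.3WTH3.2K36R females, against 0.117, 0.156 and 0.0205 CPM in H3.3WTH3.2HWT females. The ratio of means was 163 in males and 176 in females, and with 28.4 CPM in mutant males and 17.2 CPM in mutant females it had the highest mean of the 8 in CPM. RpL37-2 had 8.41, 8.87 and 7.72 CPM in H3.3WTH3.2K36R males, against 0.0968, 0 and 0.0860 CPM in the control males. In H3.3WTH3.2K36R females it had 5.96, 5.32 and 4.79 CPM and in the control females no read in any library, so it was at least 180-fold higher when each control library is set to 3 reads. Both ribosomal protein copies were higher in every mutant male library than in any mutant female library.

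gNacalpha had 22.4, 23.3 and 24.8 CPM in H3.3WTH3.2K36R males, against 0.0968, 0.126 and 0.344 CPM in H3.3WTH3.2HWT males. It had 16.4, 12.97 and 12.7 CPM in mutant females, against 0.447, 0.292 and 0.349 CPM in control females. The log2 difference was 7.002 in males and 5.27 in females. eIF4E3 had 5.06, 4.49 and 4.12 CPM in H3.3WTH3.2K36R males, against 0.0968, 0.0421 and 0.194 CPM in H3.3WTH3.2HWT males. It had 5.10, 5.43 and 5.64 CPM in mutant females, against 0.0583, 0.0389 and 0.0616 CPM in control females. Of the translation genes, eIF4E3 was lower in every mutant male library than in any mutant female library, and the other 3 were higher.

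HP6 had 7.98, 9.39 and 8.79 CPM in H3.3WTH3.2K36R males, against 0.0194, 0.0631 and 0.0215 CPM in H3.3WTH3.2HWT males. It had 7.93, 6.98 and 5.99 CPM in mutant females, against 0.00972, 0.0584 and 0.0821 CPM in control females. With a log2 difference of 7.82, HP6 had the largest of the 8 in males. Rcd-1r averaged 17.01 ± 0.0124 CPM in H3.3WTH3.2K36R males and 0.421 ± 0.0881 CPM in the control males, and 12.6 ± 1.39 CPM in mutant females and 0.487 ± 0.0966 CPM in control females (SD, n = 3 each). Its log2 difference was 5.34 in males and 4.69 in females, from the highest control level of the non-mitochondrial genes.

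The ATP synthase copies had the smallest differences in males. ATPsynepsilonL averaged 6.89 ± 0.693 CPM in H3.3WTH3.2K36R males and 0.433 ± 0.133 CPM in control males, and 3.80 ± 0.758 CPM in mutant females and 0.519 ± 0.0649 CPM in control females (SD, n = 3 each), with log2 differences of 4.002 in males and 2.87 in females. ATPsynGL had 0.242, 0.212 and 0.246 CPM in H3.3WTH3.2K36R males, against 0, 0.0281 and 0 CPM in control males. In mutant females it had 0.588, 0.469 and 0.739 CPM and in control females no read, at least 20.1-fold higher with control libraries set to 3 reads. It had no read in any library of the other 4 genotypes. Across the 8 genes in H3.3WTH3.2K36R brains, 6 were higher in every male library than in any female library and 2, eIF4E3 and ATPsynGL, were lower, where 11.7% and 10.5% of all tested genes separated in those directions.

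**Figure D1:**
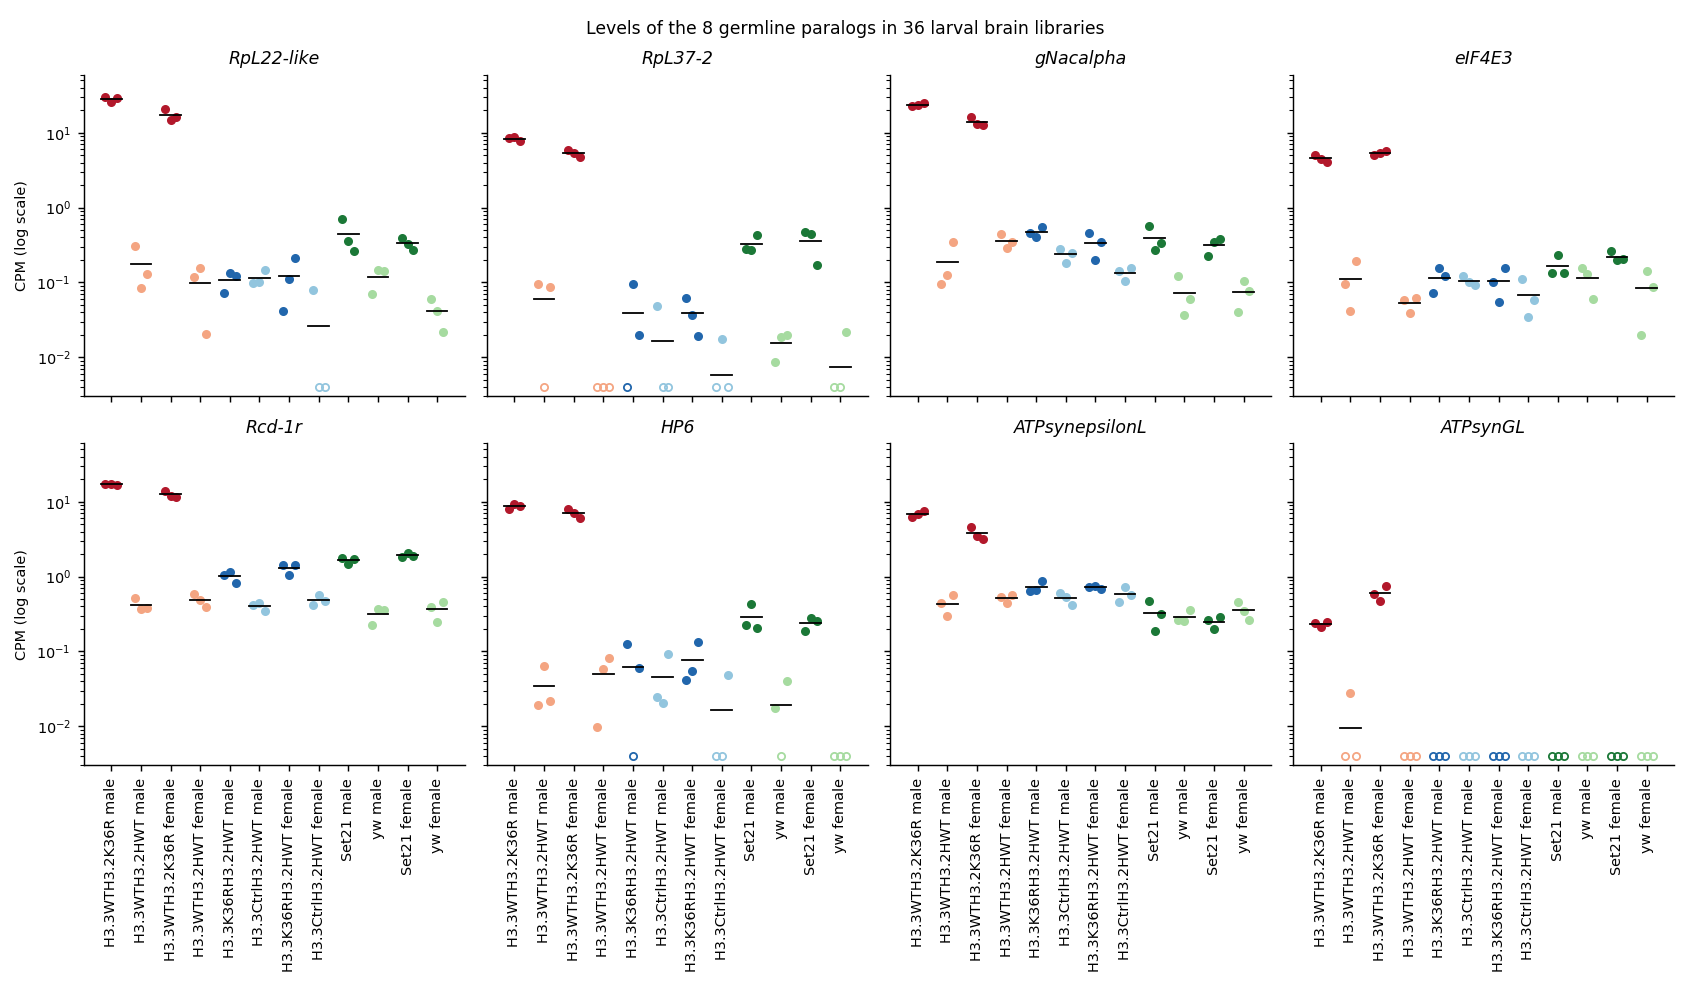
Level of each of the 8 genes in every library (CPM, log axis), one panel per gene, with the groups along the horizontal axis; points are libraries, open circles at the bottom are libraries with no read, and bars are group means. The 6 H3.3WTH3.2K36R libraries stand above all other libraries in every panel, and Rcd-1r also stands apart in Set21, at 1.46 to 2.05 CPM.

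In Set21 brains 5 of the 8 genes rose in males (RpL22-like, RpL37-2, gNacalpha, HP6 and Rcd-1r) and 6 in females (the same 5 and eIF4E3), while none fell. Among all tested genes 22.9% rose in males and 20.9% in females (edgeR quasi-likelihood test, Benjamini-Hochberg over 12167 genes, adjusted p under 0.05). The genes were chosen by another contrast, but with earlier results of these data known, so the count is not independent of the choice. RpL37-2 and HP6 failed the filter over the control libraries alone. They had 0 to 6 summed reads in yw males or females, so a fall could hardly be called for them. The median log2 difference over the 8 was 2.14 in males and 2.24 in females, beside 0.02 and 0.01 over all genes (ATPsynGL, without a read, enters at 0). The Set21 libraries stood wholly above the yw libraries for the same 5 genes in males and the same 6 in females, as they did for 26.9% and 28.3% of all genes. Group means of the genes that rose were 0.222 to 1.92 CPM in Set21, far below the 5.36 to 28.4 CPM of the same genes and sexes in H3.3WTH3.2K36R.

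Rcd-1r had 1.75, 1.46 and 1.74 CPM in Set21 males, against 0.225, 0.368 and 0.361 CPM in yw males. It had 1.83, 2.05 and 1.89 CPM in Set21 females, against 0.392, 0.248 and 0.463 CPM in yw females. The log2 difference was 2.38 (SE 0.20, edgeR adjusted p = 1.2e-10) in males and 2.39 (SE 0.20, edgeR adjusted p = 1.1e-10) in females, and no library of one genotype reached the other's range. gNacalpha had 0.567, 0.272 and 0.340 CPM in Set21 males, against 0.121, 0.0368 and 0.0601 CPM in yw males, a log2 difference of 2.40 (SE 0.41, edgeR adjusted p = 2.4e-05). It had 0.224, 0.347 and 0.379 CPM in Set21 females, against 0.0402, 0.103 and 0.0772 CPM in yw females, a log2 difference of 2.10 (SE 0.43, edgeR adjusted p = 0.00026). The libraries of the 2 genotypes did not overlap for gNacalpha in either sex.

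RpL22-like had 0.699, 0.356 and 0.264 CPM in Set21 males, against 0.0691, 0.147 and 0.140 CPM in yw males (log2 difference 1.89, SE 0.51, edgeR adjusted p = 0.0035). In females it had 0.392, 0.331 and 0.275 CPM in Set21, against 0.0603, 0.0413 and 0.0221 CPM in yw (log2 difference 2.96, SE 0.65, edgeR adjusted p = 0.00055). Again every Set21 library stood above every yw library. RpL37-2 had 0.283, 0.272 and 0.434 CPM in Set21 males, against 0.00864, 0.0184 and 0.0200 CPM in yw males (log2 difference 4.31, SE 0.85, edgeR adjusted p = 0.00015), where the yw level rests on 5 reads. In females it had 124 reads over the 3 Set21 libraries and 2 over the 3 yw libraries, a depth-scaled ratio of 51.7 with a 95% counting interval of 14.01 to 431 (edgeR adjusted p = 5.8e-05). The interval takes each read as a separate count and is too narrow if both mates of a pair were counted.

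HP6 had 0.227, 0.429 and 0.208 CPM in Set21 males, against 0.0173, 0 and 0.0401 CPM in yw males, with 6 reads behind the yw values (log2 difference 3.86, SE 0.80, edgeR adjusted p = 0.00027). In Set21 females it had 0.187, 0.281 and 0.258 CPM and in yw females no read, at least 7.70-fold higher with yw libraries set to 3 reads (edgeR adjusted p = 5.8e-05). eIF4E3 averaged 0.165 ± 0.0566 CPM in Set21 males and 0.115 ± 0.0493 CPM in yw males (SD, n = 3 each), a log2 difference of 0.49 that did not pass (SE 0.46, edgeR adjusted p = 0.40). In females it averaged 0.222 ± 0.0341 CPM in Set21 and 0.0843 ± 0.0623 CPM in yw (SD, n = 3 each), a log2 difference of 1.39 (SE 0.47, edgeR adjusted p = 0.018). That call was lost with the compared libraries alone, without Set21 female replicate 1 (edgeR adjusted p = 0.057) and without yw female replicate 1 (edgeR adjusted p = 0.12). ATPsynepsilonL did not pass in either sex, with 0.327 CPM in Set21 males and 0.293 CPM in yw males (log2 difference 0.17, edgeR adjusted p = 0.65) and with 0.251 CPM in Set21 females and 0.359 CPM in yw females (log2 difference −0.52, edgeR adjusted p = 0.14).

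In H3.3K36RH3.2HWT brains 1 of the 8 genes passed in males, Rcd-1r, and 2 passed in females, Rcd-1r and gNacalpha, all higher; 5.88% of all tested genes rose in males and 3.44% in females. The median log2 difference over the 8 was 0.45 in males and 1.37 in females, beside 0.00 and −0.00 over all genes. Rcd-1r had 1.04, 1.15 and 0.827 CPM in H3.3K36RH3.2HWT males, against 0.415, 0.450 and 0.352 CPM in H3.3CtrlH3.2HWT males (log2 difference 1.31, SE 0.20, edgeR adjusted p = 3.2e-05). In females it had 1.44, 1.07 and 1.44 CPM in H3.3K36RH3.2HWT, against 0.423, 0.575 and 0.469 CPM in H3.3CtrlH3.2HWT (log2 difference 1.43, SE 0.19, edgeR adjusted p = 5.1e-06). Mutant libraries stood wholly above control libraries for 3 of the 8 genes in males (Rcd-1r, gNacalpha and ATPsynepsilonL) and 3 in females, where 16.6% and 10.1% of all genes did.

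gNacalpha had 0.453, 0.202 and 0.346 CPM in H3.3K36RH3.2HWT females, against 0.141, 0.105 and 0.156 CPM in H3.3CtrlH3.2HWT females (log2 difference 1.30, SE 0.38, edgeR adjusted p = 0.034). The call was lost in a fit of the compared libraries alone and when any one library other than H3.3K36RH3.2HWT female replicate 2 was left out, in these with edgeR adjusted p from 0.058 (without H3.3CtrlH3.2HWT female replicate 3) to 0.17 (without H3.3K36RH3.2HWT female replicate 1). In males it had 0.464, 0.404 and 0.545 CPM in H3.3K36RH3.2HWT, against 0.281, 0.184 and 0.248 CPM in H3.3CtrlH3.2HWT, without overlap but short of the threshold (log2 difference 0.99, SE 0.35, edgeR adjusted p = 0.071). RpL37-2 had 12 reads over the 3 H3.3K36RH3.2HWT female libraries and 2 over the 3 control female libraries, a ratio of 6.68 with a 95% counting interval of 1.49 to 61.4 (edgeR adjusted p = 0.35). That interval takes each read as a separate count and is too narrow if both mates of a pair were counted. Of the rest, log2 differences in males were −0.09 for RpL22-like, 0.12 for eIF4E3, 0.42 for HP6 and 0.48 for ATPsynepsilonL, and in females 2.04, 0.58, 2.30 and 0.29, with edgeR adjusted p from 0.14 to 0.96. Group means of these 4 genes in the mutant were 0.0618 to 0.722 CPM, and for HP6 near the worth of a few reads. Missing the threshold does not show that these levels were alike.

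The Set21 and H3.3K36RH3.2HWT responses share no library, and their difference was tested. The response of Rcd-1r was larger in Set21 by 1.07 on the log2 scale in males (SE 0.28, edgeR adjusted p = 0.0044) and by 0.96 in females (SE 0.27, edgeR adjusted p = 0.010). That of HP6 was larger in Set21 males by 3.44 (SE 1.24, edgeR adjusted p = 0.036); of all tested genes 14.7% were called in that direction in males and 11.9% in females. The HP6 call was lost in 8 of 18 alternatives, which were the replicate block, the compared libraries alone and 6 left-out libraries. It was lost without H3.3CtrlH3.2HWT male replicate 3 (log2 2.43, edgeR adjusted p = 0.29), without H3.3K36RH3.2HWT male replicates 2 or 3 (0.059 and 0.055), without Set21 male replicate 2 (0.074) and without yw male replicates 1 or 2 (0.066 and 0.090).

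No difference between male and female responses passed for any of the 8 genes in Set21 (0 by edgeR and by DESeq2, 0 at an unadjusted p under 0.05) or in H3.3K36RH3.2HWT (0 by both, 1 at an unadjusted p under 0.05). Of all tested genes 3.43% and 0.181% were called in these tests. Within yw, H3.3CtrlH3.2HWT, Set21 and H3.3K36RH3.2HWT no sex difference passed either (0 by both tools in each, with 0, 1, 0 and 1 genes at an unadjusted p under 0.05), where 2.73%, 5.27%, 13.5% and 2.99% of all genes were called. The smallest edgeR adjusted p was 0.19, for RpL22-like in H3.3CtrlH3.2HWT. It averaged 0.115 CPM in males and 0.0261 CPM in females there, and without H3.3CtrlH3.2HWT female replicate 1, the one female library with a read, the difference was called.

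**Figure D2:**
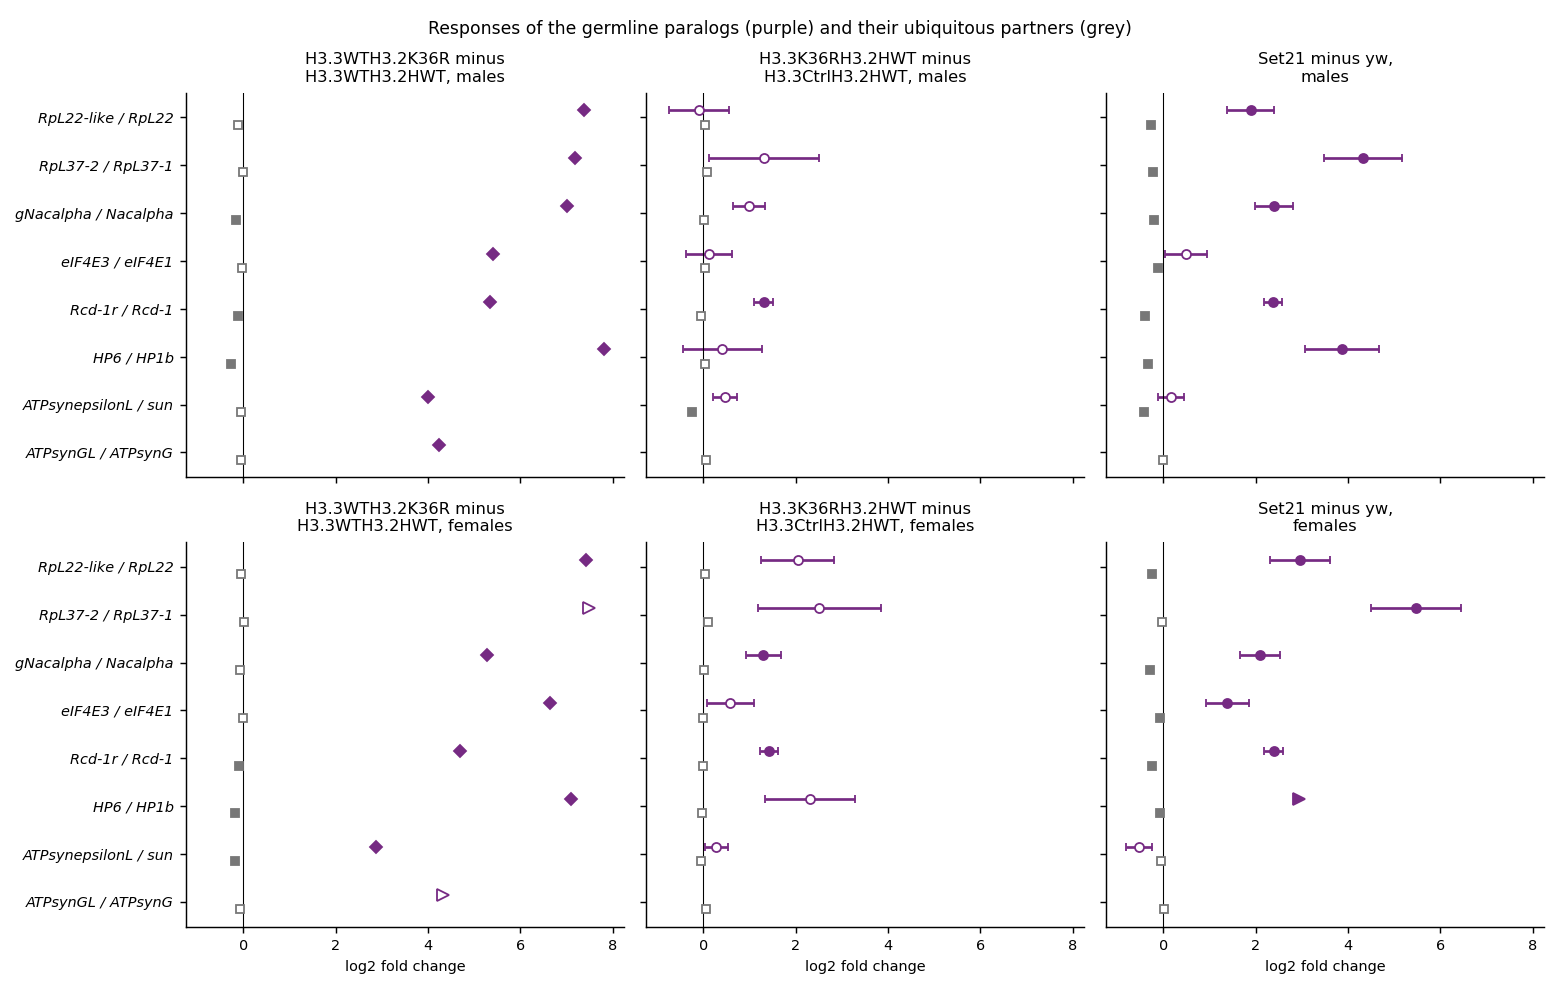
Log2 difference, mutant minus control, for each of the 8 genes (purple) and its partner (grey squares), by contrast and sex; filled symbols passed the test, diamonds are H3.3WTH3.2K36R values given without a test, triangles are lower bounds against a control at 0 reads, and bars are SE. Partners lie between −0.41 and 0.10, whereas Rcd-1r lies between 1.31 and 5.34 in all 6 contrasts.

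The partners moved by small amounts, and every partner that passed was lower in the mutant. Their group means over the 12 groups were 493 to 629 CPM for RpL22, 649 to 756 for RpL37-1, 450 to 553 for Nacalpha, 373 to 400 for eIF4E1, 62.2 to 88.7 for HP1b, 111 to 153 for Rcd-1, 49.5 to 66.2 for sun and 89.5 to 104 for ATPsynG. In H3.3WTH3.2K36R males 3 of 8 fell, where 13.1% of all genes fell. HP1b averaged 62.2 CPM in mutant males and 74.8 CPM in control males (log2 difference −0.27, edgeR adjusted p = 4e-07). Nacalpha fell by 0.14 (edgeR adjusted p = 0.0044) and Rcd-1 by 0.11 (edgeR adjusted p = 0.0041).

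In H3.3WTH3.2K36R females HP1b fell by 0.18 (edgeR adjusted p = 0.00015), Rcd-1 by 0.09 (edgeR adjusted p = 0.022) and sun by 0.19 (edgeR adjusted p = 0.018), where 13.7% of all genes fell. Both the Rcd-1 and the sun call were lost with the compared libraries alone. The Rcd-1 call was also lost without mutant female replicates 1 or 3 or control female replicates 2 or 3 (edgeR adjusted p of 0.13, 0.062, 0.079 and 0.054). The sun call was also lost without mutant female replicate 1 or control female replicates 1 or 2 (edgeR adjusted p of 0.087, 0.068 and 0.13).

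In Set21 males all partners but ATPsynG fell, 7 of 8 against a background of 22%. The largest differences were −0.41 for sun (edgeR adjusted p = 1e-06) and −0.39 for Rcd-1, with 111 CPM in Set21 and 146 CPM in yw (edgeR adjusted p = 6.9e-12). In Set21 females RpL22, Nacalpha, eIF4E1, HP1b and Rcd-1 fell, 5 of 8 against 21.5%. HP1b, at −0.08 and an edgeR adjusted p of 0.05, lost its call in 11 of 12 alternatives, DESeq2 and every left-out library but yw female replicate 3 among them (edgeR adjusted p up to 0.19, without yw female replicate 2). The Set21 response was lower than that of H3.3K36RH3.2HWT for 6 of 8 partners in males and 4 in females (backgrounds 16.4% and 13%). In the H3.3 pair sun fell by 0.23 in males (edgeR adjusted p = 0.0076, and 0.072 without H3.3CtrlH3.2HWT male replicate 1), where 4.08% fell. In H3.3K36RH3.2HWT females 0 partners passed by edgeR or DESeq2 and 1 had an unadjusted p under 0.05, where 2.90% of all genes fell.

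To compare a copy with its partner, reads were divided by coding length, and the copy's share of the pair's total per kilobase was taken in each library. HP6 made up 24.1 ± 0.889% of the HP6 and HP1b total in H3.3WTH3.2K36R males and 0.104% in H3.3WTH3.2HWT males, and 18.05 ± 2.69% in mutant females and 0.139% in control females (SD, n = 3 each). ATPsynepsilonL made up 12.1 ± 0.587% in mutant males and 0.829% in control males, and 7.22 ± 1.61% in mutant females and 0.932% in control females. Rcd-1r made up 11.8 ± 0.158% in mutant males and 0.306% in control males. The partners of these 3 were the least abundant per length in mutant males, with 86.4 CPM per kilobase for HP1b, 146 for Rcd-1 and 260 for sun, beside 2359 for RpL37-1. Which of ATPsynepsilonL and Rcd-1r had the larger share depends on the length used, as Rcd-1 has 912 coding bases and 1734 exon bases.

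The shares of the translation copies in mutant males ran from 1.27% to 4.67%. RpL22-like made up 4.67 ± 0.291% in H3.3WTH3.2K36R males and 0.0273% in control males (SD, n = 3 each). gNacalpha made up 2.86 ± 0.167% in mutant males and 0.0219% in control males. RpL37-2 made up 1.31 ± 0.110% in mutant males and 0.0097% in control males, and eIF4E3 1.27 ± 0.138% in mutant males and 0.0309% in control males. ATPsynGL reached 0.234% in mutant males and 0.614% in mutant females. The median share over the 8 pairs was 3.77% in mutant males and 2.17% in mutant females. On the scale of CPM per kilobase of coding length, the order in mutant males was ATPsynepsilonL (35.9), RpL37-2 (31.2), RpL22-like (30.3), HP6 (27.4), gNacalpha (22.6), Rcd-1r (19.5), eIF4E3 (6.23) and ATPsynGL (0.727). This order depends on the length used. ATPsynepsilonL has 192 coding bases and 490 exon bases, whereas RpL22-like has 936 and 1232, so ATPsynepsilonL would not be first by exon length.

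In Set21 brains Rcd-1r made up 1.53% of its pair in males and 1.57% in females, against 0.227% in yw males and 0.259% in yw females. HP6 made up 1.00% in Set21 males and 0.649% in Set21 females, against 0.0544% in yw males and 0% in yw females. In H3.3K36RH3.2HWT brains Rcd-1r made up 0.722% in males and 0.898% in females, against 0.284% and 0.335% in H3.3CtrlH3.2HWT males and females. Shares of the other 6 genes in Set21 and H3.3K36RH3.2HWT brains were at most 1.39%, the value of ATPsynepsilonL in H3.3K36RH3.2HWT males.

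**Figure D3:**
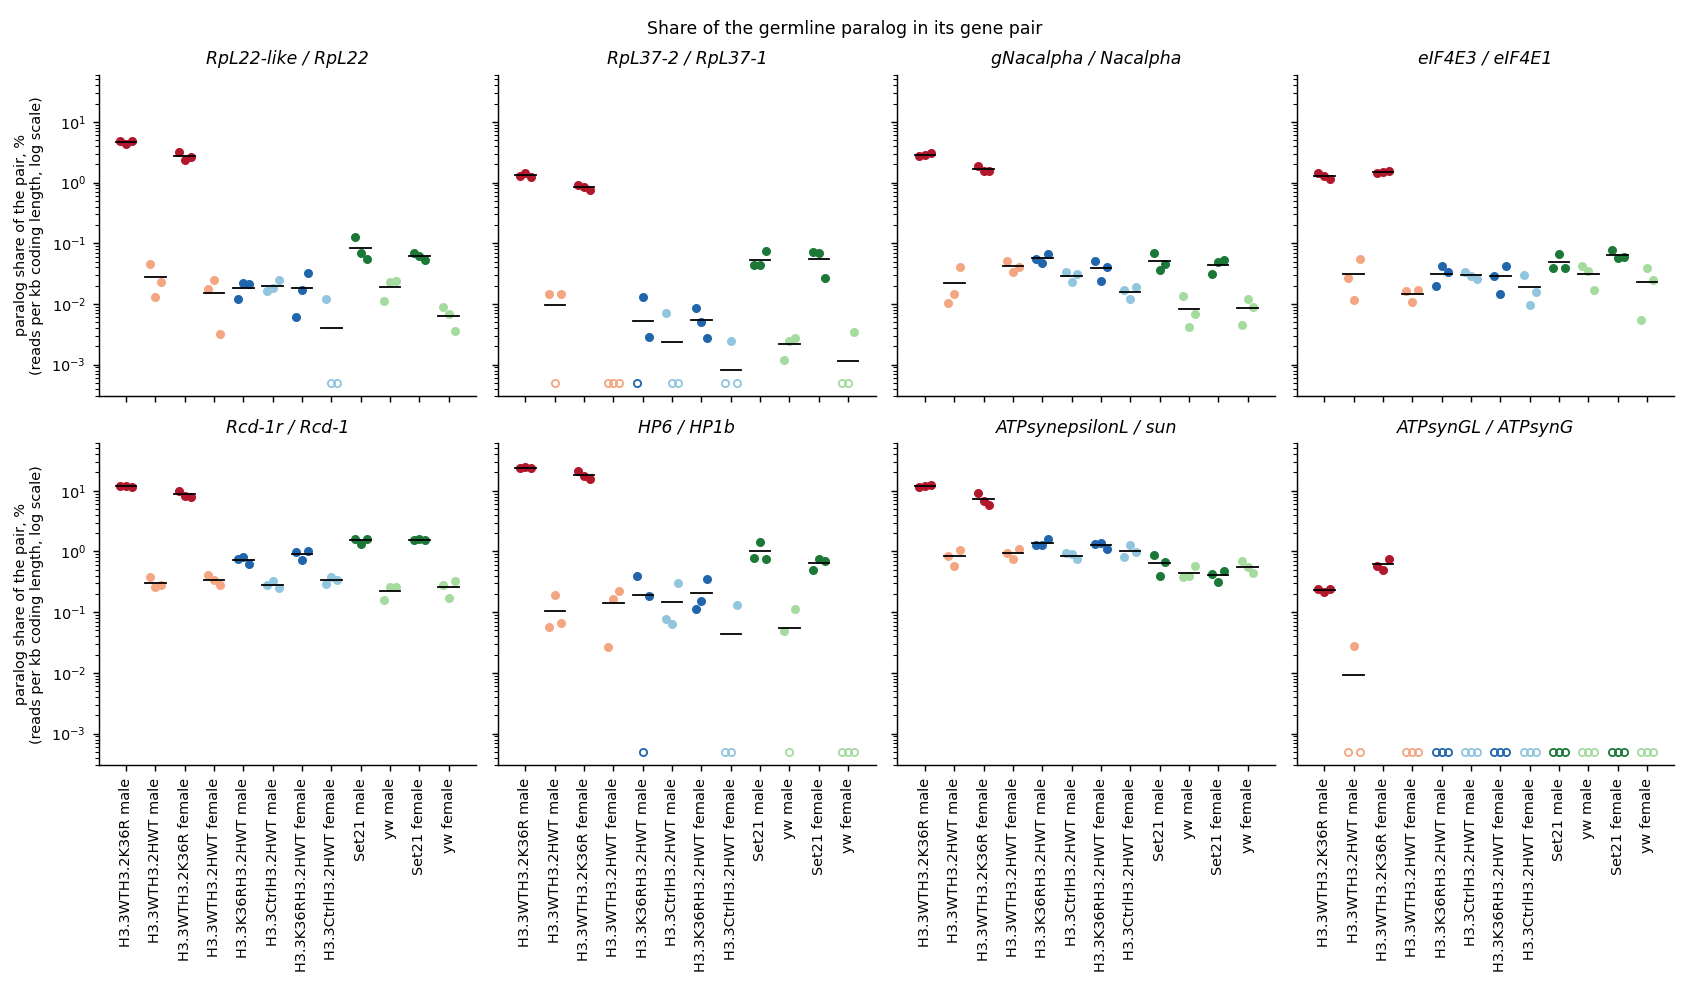
Share of each copy in its pair, in percent of reads per kilobase of coding length (log axis), by group; points are libraries. HP6, ATPsynepsilonL and Rcd-1r reach the largest shares in H3.3WTH3.2K36R males (24.1%, 12.1% and 11.8%), and Rcd-1r reaches 1.53% in Set21 males and 1.57% in Set21 females.

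Reads from a pair could be credited to the wrong copy where the sequences are alike, so the copy's reads were set against its partner's in the 30 libraries outside H3.3WTH3.2K36R. Apart from counting error, a constant rate of misplaced partner reads cannot exceed the lowest rate found in any library. Where that library held few reads of the copy, the true rate may lie somewhat above the lowest one found. RpL22-like had no read beside 75419 of RpL22 in one library and a median of 2.09 per 10000 partner reads, against 246 to 533 in H3.3WTH3.2K36R libraries. RpL37-2 had no read in 11 of the 30 libraries, in one of them beside 87173 of RpL37-1, and 72.9 to 139 per 10000 in H3.3WTH3.2K36R. For both ribosomal protein genes the lowest libraries therefore held a rate far below the mutant ones.

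gNacalpha was lowest at 4 reads beside 60780 of Nacalpha (0.658 per 10000) and reached 250.2 to 501 in H3.3WTH3.2K36R, and eIF4E3 was lowest at 2 beside 39715 of eIF4E1 (0.504 per 10000) and reached 105 to 143. HP6 had no read in 7 of the 30 libraries and reached 815 to 1478 per 10000, and ATPsynGL had none in 29 of the 30 and reached 23.4 to 82.8. For Rcd-1r the lowest rate was 15.4 per 10000 (26 reads beside 16870 of Rcd-1) and for ATPsynepsilonL 31.6 (24 beside 7596 of sun). For Rcd-1r and ATPsynepsilonL misplaced reads up to about that rate, or somewhat above it given counting error, cannot be told apart from a low level of their own RNA. The sequence identity of the pairs was not analysed here.

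Genes that overlap or neighbour the 8 were compared for the same reason. dpy, which surrounds HP6, was higher in H3.3WTH3.2K36R males (213 CPM in mutants, 81.6 CPM in controls, log2 difference 1.39, edgeR adjusted p = 2.7e-05) and in mutant females (242 CPM in mutants, 63.0 CPM in controls, log2 difference 1.94, edgeR adjusted p = 2.1e-07). Its part in the HP6 counts was not tested. IA-2, around gNacalpha, was not called in H3.3WTH3.2K36R, and CG13102, on the other strand at Rcd-1r, stayed at or below 0.0559 CPM in group mean. Of the 16 nearest flanking genes 11 passed the filter, 4 of which rose in H3.3WTH3.2K36R brains in each sex (backgrounds 12.3% in males and 11.1% in females) and 1 of which fell in males (background 13.1%). Neighbours silent in the controls could pass the filter through a mutant that raised them. The 3 neighbours described next were chosen after their values were seen. CG12782, beside RpL22-like, averaged 2.79 CPM in mutant males and 0.00646 CPM in control males, and CG9876, beside RpL37-2, averaged 1.62 CPM in mutant males and 0.00717 CPM in control males. CG9876 was also higher in Set21, with 32 reads in Set21 males and 4 in yw males (edgeR adjusted p = 0.0065) and 42 reads in Set21 females and 3 in yw females (edgeR adjusted p = 0.0031). gammaSnap2, 373 bases from ATPsynepsilonL, fell in Set21 males by 1.69 (SE 0.15, edgeR adjusted p = 2.3e-10) and in Set21 females by 2.40 (SE 0.15, edgeR adjusted p = 4.3e-13).

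Markers of germ cells moved with the 8 genes in H3.3WTH3.2K36R brains. Of 16 germ cell markers 14 were tested, and 12 rose and none fell in mutant males and in mutant females (backgrounds 12.3% and 11.1% higher), for example zpg, a germline gap junction gene, with 5.91 CPM in mutant males and 0.0836 CPM in control males. Their summed level was 285 to 294 CPM in mutant males and 264 to 269 CPM in mutant females, against 182 to 189 CPM in control males and 175 to 193 CPM in control females, and none of the 16 was at 0 in these groups. Of 12 spermatocyte markers 8 were tested and 4 rose in each sex, with none falling in males and 1 in females, and sums of 64.5 to 66.8 CPM in mutant males and 57.3 to 68.6 CPM in control males, and 72.8 to 78.3 CPM in mutant females and 61.4 to 72.0 CPM in control females. Of these, dj and kl-5 were at 0 in control males and comr and kl-5 in control females, and none was at 0 in the mutants. The part of other cells in the levels of the 8 genes was not tested. In bulk RNA, more cells of a type and more RNA per cell cannot be told apart. The filter covered all libraries, so markers silent in the controls could enter through a mutant that raised them. Such markers could hardly be called lower.

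In Set21 brains the germ cell sum was 140 to 156 CPM in males and 148 to 151 CPM in females, below the 176 to 186 CPM of yw males and the 177 to 183 CPM of yw females, while 5 of the 14 tested markers rose and 3 fell in males (backgrounds 22.9% and 22%) and 6 rose and 3 fell in females (backgrounds 20.9% and 21.5%). In H3.3K36RH3.2HWT brains the sum was 213 to 216 CPM in males and 207 to 215 CPM in females, against 194 to 195 CPM in H3.3CtrlH3.2HWT males and 179 to 194 CPM in H3.3CtrlH3.2HWT females, with 5 markers higher in each sex (backgrounds 5.88% in males and 3.44% in females) and 2 lower in males and 1 in females (backgrounds 4.08% and 2.90%). The part of these markers' cells in the values was not tested. Over all libraries, sums of the 5 fat body markers ranged from 3.47 to 429 CPM, those of the 4 hemocyte markers from 6.52 to 42.6 CPM and those of the 4 ring gland markers from 63.9 to 363 CPM. In H3.3WTH3.2K36R brains no fat body marker was called, 2 hemocyte markers fell in each sex and 1 ring gland marker fell in males and 3 in females (backgrounds 13.1% in males and 13.7% in females). For example PPO1, a hemocyte enzyme, had 0.0542 CPM in mutant males and 2.91 CPM in control males.

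Other germline or testis copies of housekeeping genes were taken from a list of 64, of which 38 passed the filter. The genes can, mia, nht and sa are on this list and among the spermatocyte markers. The filter covered all libraries, so copies silent in the controls could enter through a mutant that raised them. Such copies could hardly be called lower, and the filter was not rerun for them without the H3.3WTH3.2K36R libraries. In H3.3WTH3.2K36R brains 15 of the 38 rose and 3 fell in males (backgrounds 12.3% and 13.1%), and 13 rose and 3 fell in females (backgrounds 11.1% and 13.7%). The median log2 difference was 0.68 in males and 0.38 in females, beside 0.00 and −0.00 over all genes. In Set21 brains 13 rose and 8 fell in males (backgrounds 22.9% and 22%) and 12 rose and 8 fell in females (backgrounds 20.9% and 21.5%), with medians of 0.43 and 0.19, so the share that fell was near the background in both sexes. In H3.3K36RH3.2HWT brains 2 rose and 2 fell in males (backgrounds 5.88% and 4.08%), near the background each way, and 4 rose and 2 fell in females (backgrounds 3.44% and 2.90%), with medians of −0.06 and 0.02.

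In the translation list 7 of 10 tested copies were higher in H3.3WTH3.2K36R males and 8 in females, and none lower. For this list and the ribosome list the backgrounds were 12.3% higher and 13.1% lower in males and 11.1% and 13.7% in females. In each sex 4 of these were betaNACtes1, betaNACtes3, betaNACtes4 and betaNACtes6, a family of similar copies whose counts are uncertain and not independent of each other. betaNACtes3, a testis form of the beta subunit that pairs with Nacalpha, averaged 5.72 CPM in mutant males and 0.161 CPM in control males (log2 difference 5.14, SE 0.38, edgeR adjusted p = 2.3e-11). In the ribosome list 2 of 6 were higher and 1 lower in each sex. RpS10a averaged 3.31 CPM in mutant males and 0.0921 CPM in control males (log2 difference 5.16, SE 0.30, edgeR adjusted p = 2.1e-13), and RpS5b averaged 32.4 CPM in mutant males and 12.1 CPM in control males (log2 difference 1.42, SE 0.11, edgeR adjusted p = 3.9e-11). Their partners RpS10b and RpS5a were not called in this contrast.

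Of the tubulin and TAF list, rye, a testis relative of the transcription factor subunit Taf12, averaged 15.1 CPM in mutant males and 3.57 CPM in control males (log2 difference 2.08, SE 0.11, edgeR adjusted p = 5.7e-14), while Taf12 itself fell by 0.17 (edgeR adjusted p = 0.00047). In all, 2 of its 6 tested genes rose and 1 fell in each sex. The backgrounds, also for the next lists, were 12.3% higher and 13.1% lower in males and 11.1% and 13.7% in females. In the proteasome list 2 of 6 rose and 1 fell in males and 1 rose and 1 fell in females. Rpt3R, the most abundant of these, was among those that fell, with 3.76 CPM in mutant males and 5.52 CPM in control males (log2 difference −0.55, edgeR adjusted p = 0.00018). The mitochondrial list, which holds relatives of the ATP synthase copies, had 2 of 10 higher in males, COX4L (log2 difference 0.93, edgeR adjusted p = 0.045) and COX7AL (1.99, edgeR adjusted p = 0.038), both named after their values were seen. Both calls were lost with the replicate block and with no filter on low counts, and that of COX4L with the compared libraries alone. The COX4L call was also lost without any one library but H3.3WTH3.2HWT male replicate 2, and the COX7AL call without any one but H3.3WTH3.2K36R male replicate 2 (edgeR adjusted p up to 0.17 for COX4L and 0.12 for COX7AL). In females COX4L averaged 0.514 CPM in mutants and 0.302 CPM in controls (edgeR adjusted p = 0.11) and COX7AL 0.0782 CPM in mutants and 0.0915 CPM in controls (edgeR adjusted p = 0.84). The most abundant copy of the translation list, eIF4G2, at 824 CPM in mutant males and 810 CPM in control males, was not called.

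In Set21 brains the direction was mixed by list. The mitochondrial list had 5 of 10 higher and 1 lower in each sex, the lower one being tomboy40 (log2 difference −0.65, edgeR adjusted p = 0.0019 in males). The ribosome list had 2 higher and 3 lower in males and 1 higher and 4 lower in females, among them RpS19b in females (0.360 CPM in Set21, 1.23 CPM in yw, log2 difference −1.77, edgeR adjusted p = 3.4e-06), RpS15Ab in males (−0.53, edgeR adjusted p = 1e-07) and RpL34a in males (−0.28, edgeR adjusted p = 5.7e-06). Of the translation list 2 of 10 rose in males, near the background, and 3 in females. These included eIF4E6, a cap-binding relative of eIF4E3, in females (1.13 CPM in Set21, 0.284 CPM in yw, log2 difference 1.98, edgeR adjusted p = 1.6e-07). The proteasome list had 2 higher and 2 lower in males and 1 higher and 2 lower in females. Of the tubulin and TAF list 2 rose and 2 fell in males and 2 rose and 1 fell in females, with rye higher (1.22 in males, edgeR adjusted p = 1.1e-09), can higher (0.78 in males, edgeR adjusted p = 1.2e-06) and gammaTub37C, a maternal gamma-tubulin, lower (−1.55 in males, edgeR adjusted p = 1.3e-09).

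In H3.3K36RH3.2HWT brains eIF4E6 rose in males (1.15 CPM in mutants, 0.438 CPM in controls, log2 difference 1.39, edgeR adjusted p = 0.00014) and in females (log2 difference 1.25, edgeR adjusted p = 0.00057), as it and Rcd-1r did in both sexes of Set21. In males ND-51L1 also rose (1.32, edgeR adjusted p = 0.035) and ttm2 (−1.35, edgeR adjusted p = 0.022) and Cyt-c-d (−1.62, edgeR adjusted p = 0.034) fell. The Cyt-c-d call was lost without any one library but H3.3CtrlH3.2HWT male replicate 2, the ND-51L1 call without any but H3.3CtrlH3.2HWT male replicate 3 or H3.3K36RH3.2HWT male replicate 2, and the ttm2 call without any but H3.3CtrlH3.2HWT male replicates 1 or 3 (edgeR adjusted p up to 0.15, 0.17 and 0.12). In females Rpt6R (1.09, edgeR adjusted p = 0.0031), RpS10a (1.37, edgeR adjusted p = 0.0058) and can (0.44, edgeR adjusted p = 0.010) rose, the last not without H3.3CtrlH3.2HWT female replicate 2 or H3.3K36RH3.2HWT female replicate 1 (edgeR adjusted p of 0.059 and 0.10). With the compared libraries alone none of these female calls passed, that of eIF4E6 included.

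**Figure D4:**
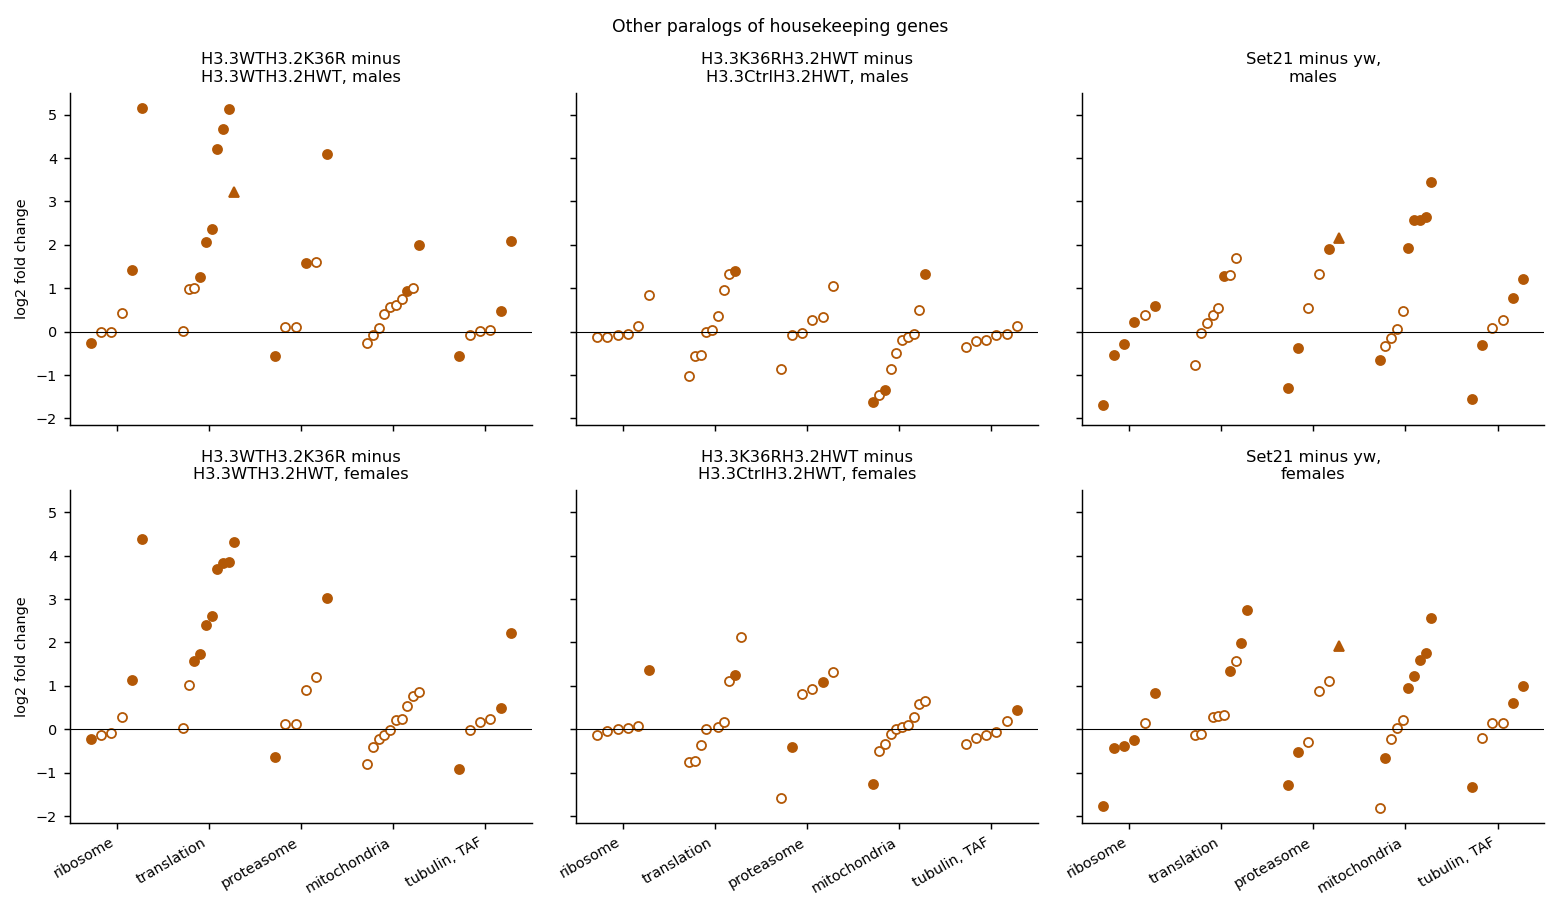
Log2 difference, mutant minus control, of the other germline or testis copies in 5 lists and 6 contrasts; filled points passed the test and triangles are lower bounds. In H3.3WTH3.2K36R the translation list has 7 of 10 tested copies called higher in males and 8 in females, while in Set21 the ribosome list has 3 and 4 called lower.

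The genes whose profile over the 36 libraries was most like the mean profile of the 8 were blanks (Pearson r = 0.985), ord (0.979), asRNA:CR44237 (0.977), Dhc98D (0.976), karr (0.975), lncRNA:CR45790 (0.974), CG9926 (0.973), CG13405 (0.973), CG3251 (0.972) and CG15930 (0.972). These values rest on the contrast of the 6 H3.3WTH3.2K36R libraries with the other 30. blanks, an RNA-binding protein of the male germline, averaged 40.7 CPM in the 6 and 2.06 CPM in the 30, and ord, a meiotic cohesion factor, averaged 12.7 CPM in the 6 and 0.0149 CPM in the 30. Gene by gene, the closest were CG31091 for RpL22-like (0.955), HP1Lcsd for RpL37-2 (0.954), rye for gNacalpha (0.961), blanks for eIF4E3 (0.971), Dhc98D for HP6 (0.958), CG12493 for Rcd-1r (0.979), nanos for ATPsynepsilonL (0.955) and CG13423 for ATPsynGL (0.962).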

How the data were processed

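The deposited table holds whole-number read counts per gene for 36 libraries, made by the authors with STAR 2.7.2a and Subread 2.0.3 per the submitters' processing notes, from a stranded polyA kit with paired reads of 100 bases per the labels. Neither the genome build nor the annotation and strand setting is given in the sources used here. Between 79.2% and 85.1% of the values from 1 to 4 were even, so the values are called reads and may count both mates of a pair. The table's 17606 genes were matched to Ensembl release 115 (BDGP 6.54) for arms, introns and coding lengths; 79 genes, with 0.401% of reads, did not match. No column of another series was found. Libraries of one group differed by more than sampling noise (chi-square per degree of freedom 8.19 to 96.1).

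Counts were tested with edgeR 4.0.16 in R 4.3.3 (limma 3.58.1), in one quasi-likelihood fit over the 12 group means with TMM scaling, factors 0.970 to 1.05, a minimum count of 10, 24 residual degrees of freedom, 12167 genes, and 0.118 as the common coefficient of biological variation. Tests were 2-sided, with Benjamini-Hochberg adjustment over all genes and a threshold of 0.05. The 8 genes and all lists were chosen with earlier results of these data known, so no set was tested and the H3.3WTH3.2K36R contrast was tested only for other genes. Text names the 8 genes, their partners, up to 4 called genes per contrast by smallest p and the most abundant gene of each other list, and genes by likeness; flanking genes were chosen after their values were seen. Alternatives were DESeq2 1.42.0, its size factors, no filter, a replicate block, the compared libraries alone, fragments in place of reads (chosen after seeing the data) and each library left out. Of the contrasts checked, same-numbered libraries were most alike in H3.3WTH3.2K36R and H3.3WTH3.2HWT females (correlations 0.105 to 0.340, from the data, not the labels). Even there only 2 of the 3 numbers were the best match, so pairing is not established. Sex within these 2 genotypes was not checked. Counting intervals and the floor of 3 reads cover counting error only. Both take each read as a separate count, so the intervals are too narrow if both mates of a pair were counted. Promoter and motif searches were not run.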

Additional observations from a re-analysis of the deposited data

Results flagged for a closer look

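Responses that differed between the sexes by a test of the difference itself (edgeR) were found among partners and other copies, in Set21 minus yw. The male response minus the female response was −0.24 for HP1b (adjusted p = 0.0014), −0.16 for Rcd-1 (adjusted p = 0.027) and −0.36 for sun (adjusted p = 0.0070), so these partners were lowered more in males. Of all tested genes 3.43% were called in this test, in either direction. The other X-linked partners were not called, with −0.01 for RpL22 (edgeR adjusted p = 0.98) and −0.20 for RpL37-1 (edgeR adjusted p = 0.06). The Rcd-1 difference did not pass in 7 of the 18 alternatives (adjusted p up to 0.12). For RpS5b it was 0.99 (adjusted p = 0.00016), with 12.8 CPM in Set21 males and 8.46 CPM in yw males, and 7.46 CPM in Set21 females and 9.80 CPM in yw females.

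Responses that differed between Set21 and H3.3K36RH3.2HWT were found for genes of the 8 and for partners. In males the Set21 response minus the H3.3K36RH3.2HWT response was 3.44 for HP6 and 1.07 for Rcd-1r, and −0.29 for RpL22, −0.30 for RpL37-1, −0.22 for Nacalpha, −0.13 for eIF4E1, −0.35 for HP1b and −0.35 for Rcd-1 (edgeR adjusted p from 1.7e-07 to 0.036). In females it was 0.96 for Rcd-1r, and −0.28 for RpL22, −0.30 for Nacalpha, −0.08 for eIF4E1 and −0.24 for Rcd-1 (edgeR adjusted p from 5.3e-05 to 0.037). Rcd-1r and Rcd-1 thus differed between the mutants in opposite directions in both sexes. The HP6 difference in males did not pass in 8 of the 18 alternatives (adjusted p up to 0.29). The eIF4E1 difference in females did not pass in 15 of the 18 alternatives (adjusted p up to 0.22).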

How the results depend on the processing

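No gene called in the reported fit and checked reversed its direction under any alternative. Differences that were not called were not checked for this. With the replicate block, 2 of the 8 genes were called in H3.3K36RH3.2HWT males (gNacalpha beside Rcd-1r) in place of 1, 2 other copies in place of 4, and the median of the 8 in H3.3WTH3.2K36R males was 6.277 in place of 6.21. That the numbers pair these libraries is not established. In H3.3WTH3.2K36R and H3.3WTH3.2HWT females the block moved no count by more than 1.5 times. DESeq2 called 2 of the 8 in H3.3K36RH3.2HWT males and 2 in place of 1 for the Set21 minus H3.3K36RH3.2HWT response in females. With the compared libraries alone, which leaves fewer residual degrees of freedom, the 8 gave 1 call in place of 2 in H3.3K36RH3.2HWT females, partners 1 in place of 3 in H3.3WTH3.2K36R females, and other copies 2 in place of 4 in H3.3K36RH3.2HWT males and 0 in place of 6 in females. The median share of the pair in H3.3WTH3.2K36R males was 4.68% by raw reads and 4.055% by exon length in place of 3.77%, and in females 2.71% and 2.69% in place of 2.17%. Leaving out each library in turn moved the median of the 8 in H3.3WTH3.2K36R to 6.11 to 6.65 in males and 6.67 to 6.9 in females, and the median share to 3.69% to 3.86% in males and 2.00% to 2.30% in females. It gave 1 to 2 calls among the 8 in H3.3K36RH3.2HWT females, 1 in males, 5 in Set21 males, 5 to 6 in Set21 females, 1 to 3 for the Set21 minus H3.3K36RH3.2HWT response in males and 1 in females, and 0 to 1 for sex within H3.3CtrlH3.2HWT. Partners gave 3 to 4, 1 to 3, 0 to 1, 0 to 1, 7 and 4 to 5 calls, and other copies 15 to 16, 14 to 17, 1 to 3, 3 to 6, 18 to 22 and 16 to 18, in the males and then females of H3.3WTH3.2K36R, H3.3K36RH3.2HWT and Set21. Of calls named above, the block ended those of HP6 in males and eIF4E1 in females for the response difference. It ended those of HP1b in Set21 females, COX4L and COX7AL in H3.3WTH3.2K36R males and betaNACtes1 in H3.3WTH3.2K36R females. In H3.3K36RH3.2HWT males it ended those of Cyt-c-d and ttm2. The compared libraries alone ended these HP6, eIF4E1, HP1b and COX4L calls, and that of eIF4E3 in Set21 females. Also ended were Rcd-1 and sun in H3.3WTH3.2K36R females and Cyt-c-d and ND-51L1 in H3.3K36RH3.2HWT males. In H3.3K36RH3.2HWT females those of gNacalpha, eIF4E6, Rpt6R, RpS10a and can were ended. The causes were not tested. The Set21 calls of RpL22-like, RpL37-2, gNacalpha, HP6 and Rcd-1r and the H3.3K36RH3.2HWT calls of Rcd-1r passed under every alternative run. For RpL37-2 and HP6, which failed the filter over the control libraries alone, a fall could hardly be called under any of them. Genes at a few reads per library, such as HP6 and RpL37-2 in the controls, are limited by counting error.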
